A study of Mus musculus with 7 samples.

Results

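The genes described here encode the subunits of the proteasome, whose RNA was measured by sequencing in the medial prefrontal cortex of mice given TSP1 or PBS. They were chosen by symbol: protein-coding genes named Psma, Psmb, Psmc or Psmd followed by digits alone, without pseudogenes and without 1 immune beta subunit gene that the rule left out. This gave 38 of the 25467 genes in the count table, 18 in the core particle (Psma and Psmb) and 20 in the regulatory particle (Psmc and Psmd). A low-count filter kept 36 of the 38, and 17211 of all genes.

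The proteasome is the main protease of the cytosol and nucleus and degrades proteins tagged with ubiquitin. Its core particle is a barrel of stacked rings in which alpha subunits form the gated outer rings and beta subunits form the inner rings with the active sites. The regulatory particle caps the barrel, recognises ubiquitin, removes it and unfolds the substrate with a ring of ATPases. In neurons, proteasomes act at synapses, where protein turnover accompanies plasticity, and in the brain interferon induces immune forms of the catalytic beta subunits largely in glia.

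The mice labelled rhTSP1, read here as recombinant human thrombospondin-1, gave 4 libraries (called TSP1). Thrombospondin-1 is a secreted glycoprotein that astrocytes release and that promotes synapse formation. The mice labelled PBS, phosphate-buffered saline, gave 3 libraries. Each library stands for 1 of the 7 mice that the series names. No dose, route or time of treatment and no strain, genotype, sex or age is stated in the labels.

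Depth was 15090336 to 18726612 counts in the 4 TSP1 libraries and 16748882 to 20755167 in the 3 PBS libraries. Markers of the labelled tissue were present: 11 cortical neuron genes summed to 1930 to 2240 CPM (counts scaled to a common library size) in TSP1 libraries and 1991 to 2271 CPM in PBS libraries, and no gene of any marker list was at 0 in every library. TSP1 replicate 4 stood apart. Its 10 striatal neuron markers summed to 691 CPM, against 292 to 312 CPM in the other TSP1 libraries and 289 to 300.2 CPM in PBS libraries, and its 10 oligodendrocyte markers to 8790 CPM, against 3199 to 4484 CPM in the other TSP1 libraries and 4818 to 6093 CPM in PBS libraries. In bulk tissue, fewer cells of a type and less RNA per cell cannot be told apart.

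No proteasome subunit gene changed between TSP1 and PBS mice at a false discovery rate (FDR) of 0.05, and the fitted differences were small. Of the 36 tested, 27 had a log2 fold change (TSP1 over PBS) below 0, and of all genes tested 48.9% did. Their median log2 fold change was -0.05, against 0.0040 for all genes tested. The immune form Psmb10, the ATPase Psmc5 and the outer ring subunit Psma3, all lower with TSP1, had the smallest unadjusted p-values. The test was edgeR's quasi-likelihood test with Benjamini-Hochberg adjustment over all 17211 genes, of which 0 passed, the smallest adjusted p being 0.0536, and 1661 had an unadjusted p below 0.05. DESeq2 called 88 genes, or 0.603% of the 14591 it gave an adjusted p, and none was a proteasome subunit gene.

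At an unadjusted p of 0.05, 3 of the 36 subunit genes passed in edgeR's test, all lower with TSP1. That is 8.33% of them, while 9.65% of all genes tested passed in either direction, 5.44% lower and 4.21% higher, so the subunit genes stood near the background. For 4 subunit genes, Psma3, Psmb10, Psmc5 and Psmd5, every TSP1 library lay below every PBS library. Over all genes tested, 5.26% lay wholly below and 4.83% wholly above, together 10.1%, and no subunit gene lay wholly above.

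The fit was more precise for most of these genes than for the median gene. The standard error (SE) of the log2 fold change ran from 0.06 to 0.58 over the 36 genes, with a median of 0.08 against 0.11 over all genes tested. For 30 of them the 95% interval lay within a log2 fold change of 0.32 on either side of 0. For the other 6 it reached past that limit on the lower side, and for 0 genes on the higher side.

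**Figure D1:**
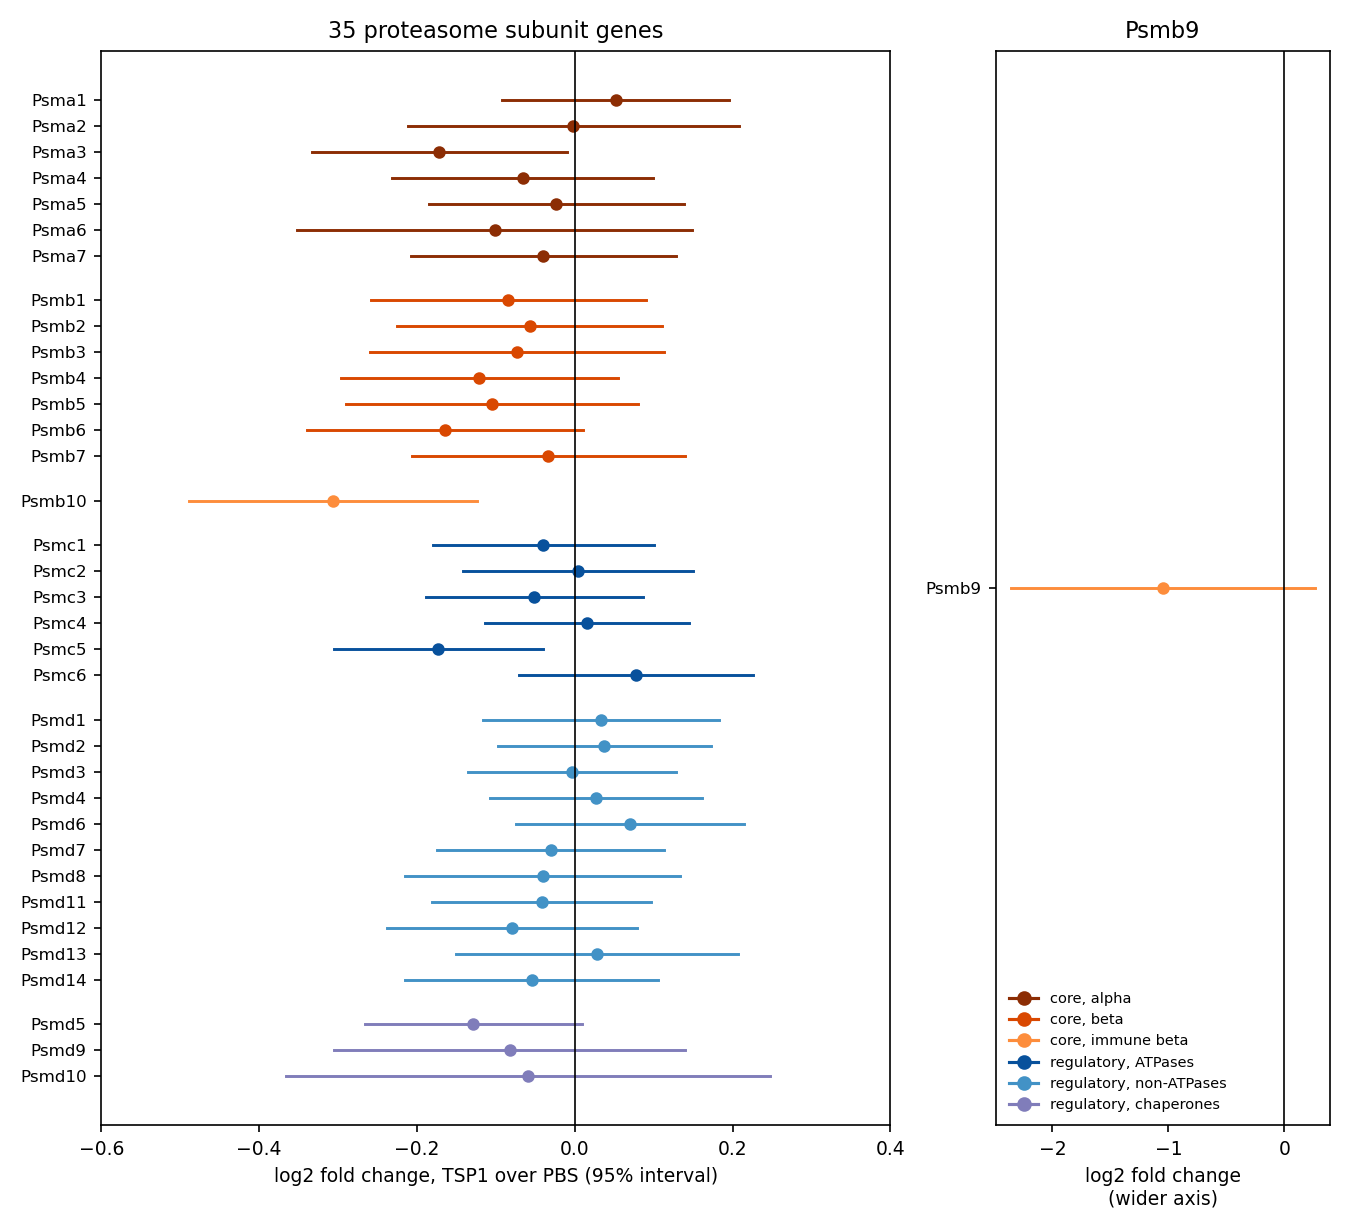
Log2 fold change, TSP1 over PBS, of the 36 tested proteasome subunit genes (points, with 95% intervals as lines), grouped by place in the complex, with Psmb9 on a wider axis of its own. The intervals of Psmb10, Psmc5 and Psma3 leave out 0, and the 7 constitutive beta subunits lie below 0 in this fit with intervals that cover it.

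Promoters are shown for the 3 genes with an unadjusted p below 0.05 and for the catalytic subunits Psmb5 and Psmb6, whose windows hold the antioxidant response element core, the motif that factors of the Nfe2l1 and Nfe2l2 family bind. Each is 130 bases long, 5′ to 3′ on the gene's strand, from RefSeq on GRCm38.p6, and capitals mark the motif. The stretch ends at the base before the GENCODE gene start, except for Psmb6, whose RefSeq start lies 10 bases upstream of the GENCODE start and whose stretch ends before the RefSeq start. They are Psmb10 at chr8:105938445-105938574 (minus strand), Psma3 at chr12:70974491-70974620 (plus strand), Psmc5 at chr11:106256024-106256153 (plus strand), Psmb5 at chr14:54618023-54618152 (minus strand) and Psmb6 at chr11:70525227-70525356 (plus strand).
Psmb10: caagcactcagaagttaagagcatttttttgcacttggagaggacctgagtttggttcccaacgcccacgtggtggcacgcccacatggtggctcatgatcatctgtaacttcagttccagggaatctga
Psma3: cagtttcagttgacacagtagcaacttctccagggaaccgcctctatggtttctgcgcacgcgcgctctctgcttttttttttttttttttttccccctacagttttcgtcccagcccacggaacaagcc
Psmc5: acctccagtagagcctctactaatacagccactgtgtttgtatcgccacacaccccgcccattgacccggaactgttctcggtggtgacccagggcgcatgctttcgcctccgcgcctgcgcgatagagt
Psmb5: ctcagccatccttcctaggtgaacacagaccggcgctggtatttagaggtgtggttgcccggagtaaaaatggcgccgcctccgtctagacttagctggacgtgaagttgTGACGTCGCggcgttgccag
Psmb6: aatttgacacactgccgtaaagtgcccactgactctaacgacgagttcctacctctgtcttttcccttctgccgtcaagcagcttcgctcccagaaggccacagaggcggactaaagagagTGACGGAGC

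In windows of 250 bases before to 50 after each start, 31 of the 38 members had an entry, with 33 windows. The motif TGACNNNGC, on either strand, was in 5 of 33 windows (15.2%), against 12.4% of all 32851 windows and 2162 of the 15447 windows of tested genes. The 5 windows are those of Psmb5, Psmb6, Psmc6, Psmd9 and Psmd12. Their log2 fold changes were -0.10, -0.16, 0.08, -0.08 and -0.08 in that order. The CCAAT box, CCAAT on either strand, was in 39.4% of the members' windows (8 of 15 core and 5 of 18 regulatory), against 37.4% of all windows. The GC box, GGGCGG on either strand, was in 57.6%, against 35.7% of all windows and 58.9% of those of tested genes. The interferon-stimulated response element core (GAAA, any 2 bases, GAAA, on either strand) was in 3 of 33 windows (Psmb3, Psmd4 and Psmd9), or 9.09%, against 3.44% of all windows. The gamma-activated site TTCNNNGAA, which reads alike on both strands, was in 1 (Psmd2), or 3.03%, against 8.30%. No window of Psmb10 or Psmb9 held either of the last 2, which says only that these letters are not in those windows.

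The alpha subunits build the outer rings and the gate of the core particle. Of the 7 tested, 6 had a log2 fold change below 0, and their median was -0.04. Psma3 (ENSMUSG00000060073, chr12:70974621-70996347 on GRCm38), an outer ring subunit, had the lowest value of this ring. It stood at 45.6, 49.6, 51.8 and 56.99 CPM in TSP1 libraries 1 to 4, against 57.3, 58.1 and 57.03 CPM in PBS libraries 1 to 3. TSP1 replicate 4 lay just under the lowest PBS library, and the TSP1 libraries spread far more widely than the PBS libraries. The means were 51.0 ± 4.76 CPM with TSP1 and 57.5 ± 0.539 CPM with PBS (SD, n = 4 and n = 3), a log2 fold change of -0.17 with an SE of 0.08 (edgeR, unadjusted p = 0.039, adjusted p = 0.492). The unadjusted p of Psma3 was above 0.05 in DESeq2 and with any 1 library except TSP1 replicate 4 left out of edgeR's fit, where the log2 fold change was -0.12 (without TSP1 replicate 1) to -0.18 (without TSP1 replicate 3). The highest value was that of Psma1 (ENSMUSG00000030751, chr7:114264606-114276118), also an outer ring subunit, with 58.8, 55.6, 57.4 and 61.7 CPM in TSP1 libraries 1 to 4, against 59.3, 52.7 and 56.9 CPM in PBS libraries 1 to 3. The groups overlapped, with a log2 fold change of 0.05 with an SE of 0.07 (edgeR, unadjusted p = 0.455, adjusted p = 0.856). The remaining 5 alpha subunits had log2 fold changes of -0.10 to -0.0020.

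The constitutive beta subunits build the inner rings, and Psmb5, Psmb6 and Psmb7 carry the active sites. All 7 had a log2 fold change below 0, from -0.16 to -0.03 with a median of -0.08, and none had an unadjusted p below 0.05. With the trend with principal transcript length removed, Psmb2 and Psmb7 were above 0, at 0.0062 and 0.022. Psmb6 (ENSMUSG00000018286, chr11:70525367-70527858), with the caspase-like site, had the lowest value: 47.4, 56.2, 58.1 and 57.5 CPM in TSP1 libraries 1 to 4, against 65.3, 56.3 and 62.8 CPM in PBS libraries 1 to 3. TSP1 replicate 1 was lowest by a wide margin, and the groups overlapped through PBS replicate 2. This was a log2 fold change of -0.16 with an SE of 0.08 (edgeR, unadjusted p = 0.0626, adjusted p = 0.547), and the unadjusted p was below 0.05 without TSP1 replicate 3 or without PBS replicate 2. Psmb5 (ENSMUSG00000022193, chr14:54614119-54618022), with the chymotrypsin-like site, had 39.5, 48.5, 51.8 and 49.7 CPM in TSP1 libraries 1 to 4, against 49.98, 49.7 and 53.4 CPM in PBS libraries 1 to 3. TSP1 replicate 1 again stood below the other 6 libraries, which overlapped, for a log2 fold change of -0.10 with an SE of 0.09 (edgeR, unadjusted p = 0.243, adjusted p = 0.744). Psmb7 (ENSMUSG00000026750, chr2:38588036-38644087), with the trypsin-like site, had 50.3, 45.4, 53.5 and 51.8 CPM in TSP1 libraries 1 to 4, against 56.0, 46.1 and 52.0 CPM in PBS libraries 1 to 3. The lowest library of each group was replicate 2, and the groups overlapped, with a log2 fold change of -0.03 with an SE of 0.08 (edgeR, unadjusted p = 0.685, adjusted p = 0.936). Of Psmb7's exon bases, 405 overlap the gene Nek6 on the opposite strand, and 109 of Psmb5's overlap the microRNA gene Mir686 on the same strand. The sources used here do not give a strand setting for the counting, which leaves the assignment of such reads uncertain.

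The immune forms replace catalytic beta subunits in cells exposed to interferon. Psmb10 (ENSMUSG00000031897, chr8:105935735-105938444), which takes the place of Psmb7, had 21.8, 25.2, 25.1 and 22.6 CPM in TSP1 libraries 1 to 4, against 26.9, 31.4 and 29.6 CPM in PBS libraries 1 to 3. Every TSP1 library was below every PBS library. The means were 23.7 ± 1.71 CPM with TSP1 and 29.3 ± 2.24 CPM with PBS (SD, n = 4 and n = 3), a log2 fold change of -0.31 with an SE of 0.08 (edgeR, unadjusted p = 0.00286, adjusted p = 0.279) and a 95% interval of -0.49 to -0.12. Psmb10 kept an unadjusted p below 0.05 in edgeR's fit and in each of the 16 alternatives, with log2 fold changes of -0.37 to -0.24. Its DESeq2 adjusted p, 0.234, was the smallest of any member.

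Psmb9 (ENSMUSG00000096727, chr17:34181987-34187764), which takes the place of Psmb6, was the lowest of the tested members in level. It had 10, 36, 15 and 17 counts in TSP1 libraries 1 to 4, against 32, 76 and 14 counts in PBS libraries 1 to 3. PBS replicate 2 held the highest count, and PBS replicate 3 lay among the TSP1 libraries. Its means were 1.09 ± 0.578 CPM with TSP1 and 2.29 ± 1.94 CPM with PBS (SD, n = 4 and n = 3), a log2 fold change of -1.05 with an SE of 0.58 (edgeR, unadjusted p = 0.103, adjusted p = 0.617) and a 95% interval of -2.36 to 0.26. Its unadjusted p was below 0.05 in some alternatives, among them DESeq2 and edgeR's fit without TSP1 replicate 2 or without PBS replicate 3. Without PBS replicate 2 the log2 fold change was -0.13. Psmb9 shares 212 exon bases with Tap1, the antigen peptide transporter gene on the opposite strand, which stood at 2.18, 2.69, 2.69 and 2.45 CPM in TSP1 libraries 1 to 4, against 4.396, 10.4 and 2.51 CPM in PBS libraries 1 to 3 and was likewise highest in PBS replicate 2.

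The same PBS library was high in an interferon response list of 14 genes, Tap1 among them, of which 12 of the 13 tested had a log2 fold change below 0. The list summed to 95.5 to 103 CPM in TSP1 libraries and 97.2 to 163 CPM in PBS libraries, and none of its genes was at 0 in every library. As a mean log2 CPM relative to the 7 libraries, it stood at -0.23, -0.15, -0.16 and -0.14 in TSP1 libraries 1 to 4, against 0.25, 0.71 and -0.28 in PBS libraries 1 to 3. By this mean the interferon list was lowest in PBS replicate 3, while by summed CPM it was lowest in a TSP1 library. Psmb10 had 29.6 CPM in PBS replicate 3, above every TSP1 library. Microglia markers also lay lower with TSP1: all 12 had a log2 fold change below 0. Of these, 8 had an unadjusted p below 0.05 and 0 an adjusted p below 0.05 in edgeR's test, while DESeq2 gave 1 of them an adjusted p below 0.05. The 12 markers summed to 464 to 587 CPM in TSP1 libraries and 594 to 684 CPM in PBS libraries. The part of either list in the values of Psmb9 and Psmb10 was not tested.

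**Figure D2:**
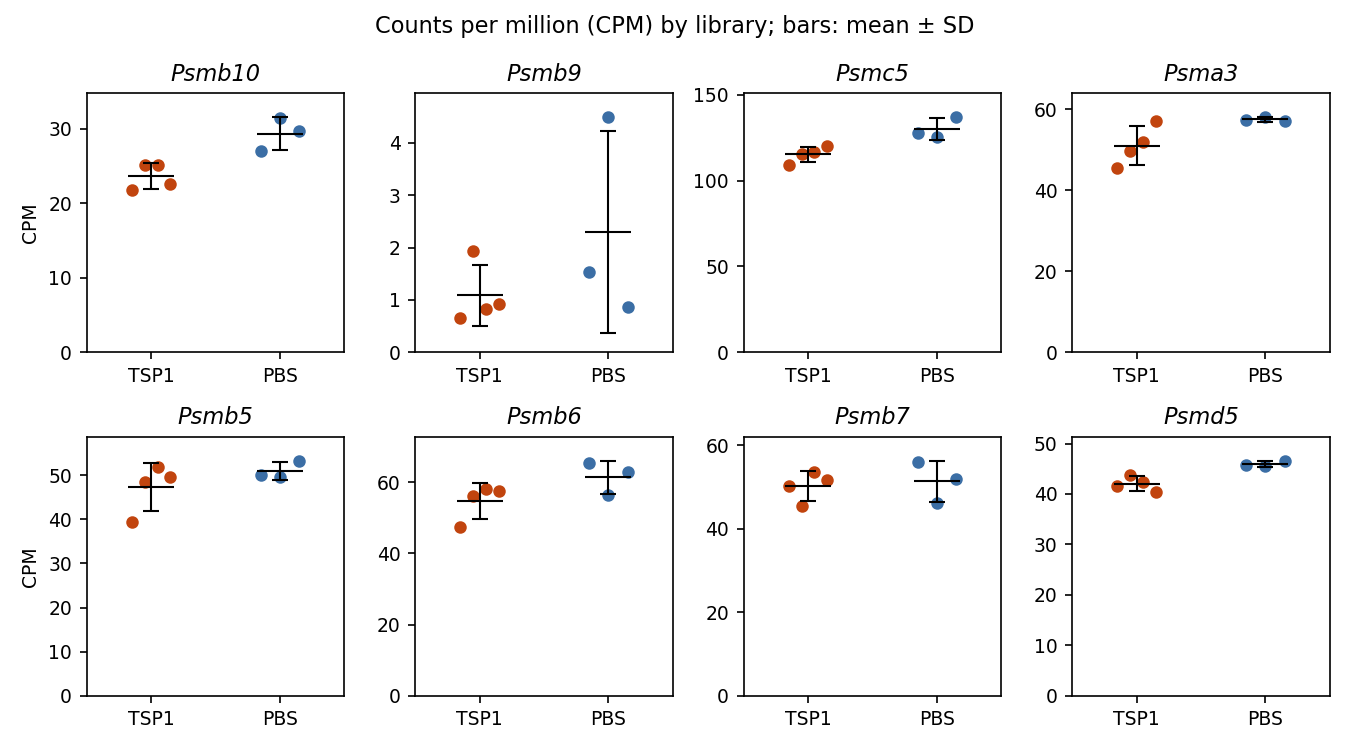
CPM of 8 proteasome subunit genes in each TSP1 (n = 4) and PBS (n = 3) library, as points from replicate 1 at the left, with bars for the mean ± SD. Psmb10, Psmc5, Psma3 and Psmd5 show no overlap between groups, and the spread of Psmb9 in PBS libraries, 1.94 CPM (SD), comes with 1 library at 4.49 CPM.

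The ATPases of the regulatory particle form the ring that unfolds substrates and opens the gate of the core. Of the 6, 3 had a log2 fold change below 0 and 3 above, with a median of -0.02. Psmc5 (ENSMUSG00000020708, chr11:106256154-106263120) had the lowest value of the ring, with 109.3, 115.6, 116.6 and 120.0 CPM in TSP1 libraries 1 to 4, against 128, 125 and 137 CPM in PBS libraries 1 to 3. The TSP1 libraries all lay below the PBS libraries. The means were 115 ± 4.46 CPM with TSP1 and 130.1 ± 6.16 CPM with PBS (SD, n = 4 and n = 3), a log2 fold change of -0.17 with an SE of 0.06 (edgeR, unadjusted p = 0.0142, adjusted p = 0.401). Psmc5 no longer had an unadjusted p below 0.05 without PBS replicate 3, where the log2 fold change was -0.13, or with the trend with exon length or principal transcript length removed. Psmc6 (ENSMUSG00000021832, chr14:45329788-45349705) had the highest value of any member, with 54.7, 53.9, 55.4 and 58.7 CPM in TSP1 libraries 1 to 4, against 53.9, 48.5 and 55.8 CPM in PBS libraries 1 to 3. The groups overlapped, with a log2 fold change of 0.08 with an SE of 0.07 (edgeR, unadjusted p = 0.278, adjusted p = 0.766).

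The non-ATPase subunits hold the ubiquitin receptors, the lid and its deubiquitinase. Of the 11, 6 had a log2 fold change below 0 and 5 above, none had an unadjusted p below 0.05, and the median was -0.0035. The lid subunit Psmd12 (ENSMUSG00000020720, chr11:107479484-107504362) had the lowest value, with 47.2, 42.4, 48.5 and 47.5 CPM in TSP1 libraries 1 to 4, against 48.2, 46.1 and 52.9 CPM in PBS libraries 1 to 3. The groups overlapped, with a log2 fold change of -0.08 with an SE of 0.07 (edgeR, unadjusted p = 0.300, adjusted p = 0.778). The lid subunit Psmd6 (ENSMUSG00000021737, chr14:14112174-14120984) had the highest, with 50.1, 51.4, 55.7 and 56.7 CPM in TSP1 libraries 1 to 4, against 50.6, 50.1 and 52.2 CPM in PBS libraries 1 to 3. Here TSP1 replicates 3 and 4 exceeded all PBS libraries and the other TSP1 libraries did not, for a log2 fold change of 0.07 with an SE of 0.07 (edgeR, unadjusted p = 0.315, adjusted p = 0.787). The ubiquitin receptor Psmd4 had a log2 fold change of 0.03 and the deubiquitinase Psmd14 one of -0.05.

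The assembly chaperones Psmd5, Psmd9 and Psmd10 bind the ATPases while the base is built and leave before the particle is complete. All 3 were below 0, with a median log2 fold change of -0.08. Psmd5 (ENSMUSG00000026869, chr2:34849734-34874968) had 41.6, 43.8, 42.5 and 40.4 CPM in TSP1 libraries 1 to 4, against 45.7, 45.6 and 46.6 CPM in PBS libraries 1 to 3. The highest TSP1 library stayed below the lowest PBS library. The means were 42.0 ± 1.42 CPM with TSP1 and 46.0 ± 0.572 CPM with PBS (SD, n = 4 and n = 3), a log2 fold change of -0.13 with an SE of 0.06 (edgeR, unadjusted p = 0.0643, adjusted p = 0.551). Psmd10 (ENSMUSG00000031429, chrX:140948429-140956728), also called gankyrin, had 8.77, 8.18, 9.77 and 8.45 CPM in TSP1 libraries 1 to 4, against 9.27, 7.33 and 10.9 CPM in PBS libraries 1 to 3. The groups overlapped fully, with a log2 fold change of -0.06 with an SE of 0.14 (edgeR, unadjusted p = 0.686, adjusted p = 0.936). Psmd9 shares 1849 exon bases with Gm26745 on the opposite strand, so its counts are uncertain.

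The 2 members below the count filter are forms of other tissues, Psma8 of the testis and Psmb11 of the thymus. Psma8 had 2, 3, 0 and 2 counts in TSP1 libraries 1 to 4, against 2, 5 and 2 in PBS libraries 1 to 3. Psmb11 had 2, 2, 2 and 4 counts in TSP1 libraries, against 7, 1 and 2 in PBS libraries. Both were at the edge of detection in each group, and neither has a fitted fold change here.

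Levels are given per kilobase of principal transcript, the main isoform in the annotation. Whether this isoform was the one expressed was not tested, so spreads between genes depend on the assigned lengths. On that scale the alpha subunits had means of 16.9 (Psma2) to 70.5 (Psma7) CPM per kilobase in TSP1 libraries, and 16.95 to 72.5 in PBS libraries. Before division by length, the TSP1 means were 49.3 CPM for Psma2 (2911 bases) and 64.4 CPM for Psma7 (914 bases). The constitutive beta subunits lay in a narrower band of 40.3 (Psmb1) to 68.7 (Psmb6) CPM per kilobase with TSP1, and 42.8 to 77.02 with PBS. The ATPases ranged from 24.9 (Psmc6) to 87.7 (Psmc5) with TSP1 and 23.6 to 98.9 with PBS, and the non-ATPases from 17.2 (Psmd11) to 63.8 (Psmd2) with TSP1 and 17.7 to 62.2 with PBS. The chaperones, which are not part of the finished particle, were lower at 6.15 to 9.56 with TSP1 and 6.41 to 10.5 with PBS. Psmb10 stood at 18.1 CPM per kilobase with TSP1 and 22.4 with PBS, against 43.3 and 44.3 for its constitutive counterpart Psmb7. Psmb9 stood at 0.804 with TSP1 and 1.70 with PBS, against 68.7 and 77.02 for its constitutive counterpart Psmb6.

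**Figure D3:**
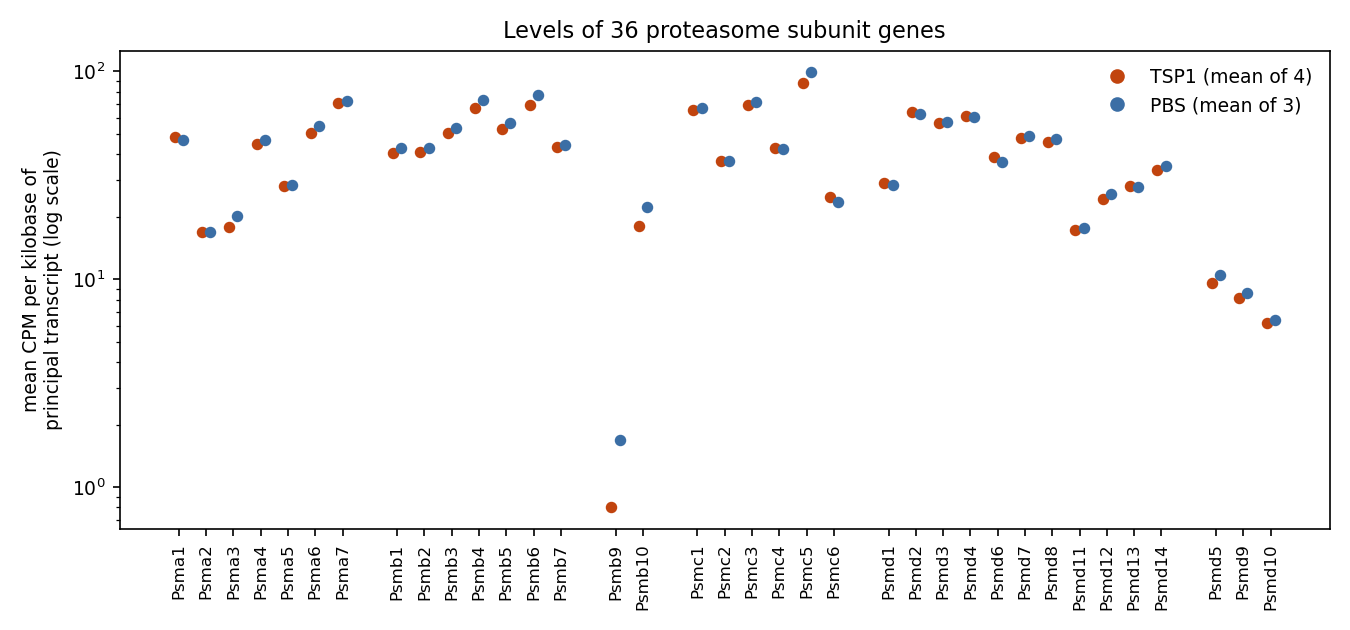
Mean CPM per kilobase of principal transcript (log scale) of the 36 tested proteasome subunit genes, with the TSP1 mean left of the PBS mean for each gene. The 31 constitutive subunits lie between 16.9 and 98.9 CPM per kilobase, the 3 assembly chaperones between 6.15 and 10.5, and Psmb9 lowest at 0.804 with TSP1 and 1.70 with PBS.

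The core particle was compared with the regulatory particle as a whole. Of 16 core genes, 15 had a log2 fold change below 0, with a median of -0.08, and of 20 regulatory genes 12, with a median of -0.03. Without the immune forms, 13 of 14 core genes were below 0 with a median of -0.07. Without the chaperones, 9 of 17 regulatory genes were below 0 with a median of -0.0035. Over all 16 core and 20 regulatory genes, immune forms and chaperones included, the median of the core minus that of the regulatory particle was -0.04. Over the alternatives this difference ran from -0.10 to -0.03. Libraries of 1 group differed by more than that: the mean log2 CPM of the core genes minus that of the regulatory genes, without the immune forms and relative to the mean of the 7 libraries, was -0.09, -0.04, 0.03 and 0.02 in TSP1 libraries 1 to 4, against 0.08, -0.01 and 0.02 in PBS libraries 1 to 3. The groups overlapped, with TSP1 replicate 1 lowest and PBS replicate 1 highest.

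Single libraries moved the median in both directions. Of the 36 subunit genes, 32, 24, 11 and 8 were below their own mean over all libraries in TSP1 libraries 1 to 4, against 4, 27 and 13 in PBS libraries 1 to 3. TSP1 replicate 1 was thus low across the complex and PBS replicate 1 high, while TSP1 replicates 3 and 4 were above average for most members. Without TSP1 replicate 1 the median log2 fold change was -0.01 over the 36 genes, -0.03 over the core genes and 0.0074 over the regulatory genes. Without PBS replicate 1 it was -0.03 over the 36 genes, -0.05 over the core genes and -0.0072 over the regulatory genes. Without PBS replicate 2 it was lower, at -0.08, -0.12 and -0.05 for the same 3 sets. Without TSP1 replicate 3 it was -0.07, -0.10 and -0.03. Without TSP1 replicate 4, the library with high striatal markers, it was -0.06, -0.12 and -0.04 for the same 3 sets, and the same 3 genes had an unadjusted p below 0.05.

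**Figure D4:**
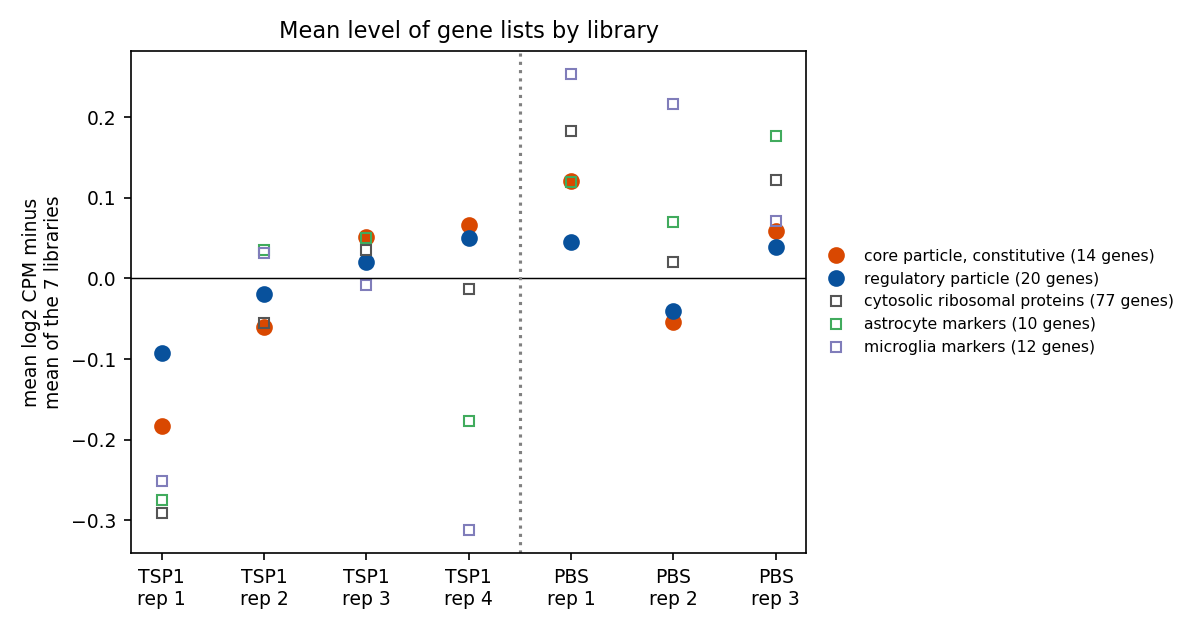
Mean log2 CPM of gene lists in each library, relative to the mean of the 7 libraries, with the 4 TSP1 libraries left of the 3 PBS libraries. The core (14 genes) and regulatory (20 genes) particle means are lowest in TSP1 replicate 1, at -0.18 and -0.09, and overlap between groups.

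By mean log2 CPM, the ribosomal protein genes were lowest in TSP1 replicate 1, next lowest in TSP1 replicate 2 and highest in PBS replicate 1. The mean over all 36 subunit genes, immune forms included, had the same lowest, next lowest and highest libraries. The regulatory particle did not share this order. Its mean was next lowest in PBS replicate 2 (-0.04, against -0.02 in TSP1 replicate 2) and highest in TSP1 replicate 4 (0.05). The cell type marker lists departed from the subunit genes in some libraries. In TSP1 replicate 1, where the subunit genes were lowest, the mean on the same scale was -0.29 over 77 ribosomal protein genes, -0.27 over 10 astrocyte markers, -0.25 over 12 microglia markers and -0.59 over 10 oligodendrocyte markers, but -0.01 over 10 endothelial markers. In TSP1 replicate 4, where most subunit genes were above their own mean, it was -0.01 over the ribosomal protein genes, -0.18 over the astrocyte, -0.31 over the microglia, 0.89 over the oligodendrocyte and -0.34 over the endothelial markers. Astrocyte markers had 9 of 10 log2 fold changes below 0, with sums of 5292 to 6515 CPM in TSP1 libraries and 6099 to 7115 CPM in PBS libraries. Endothelial markers had 10 of 10 below 0, with sums of 249.9 to 317 CPM in TSP1 libraries and 321 to 396 CPM in PBS libraries. Neuron markers had 4 of 10 below 0, with sums of 7565 to 7953 CPM in TSP1 libraries and 7215 to 7802 CPM in PBS libraries. None of these markers was at 0 in every library, and the part of these lists in the subunit values was not tested.

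The log2 fold change also followed transcript length. Over 14412 protein-coding genes tested, it was lower for short transcripts: Spearman's rho with principal transcript length was 0.26 and Pearson's r 0.19, given as a description across genes that share the same libraries. The median was -0.11 for transcripts under 1000 bases, -0.06 from 1000 to 1500, -0.04 from 1500 to 2000, -0.01 from 2000 to 3000, 0.01 from 3000 to 4500 and 0.05 for longer ones. The proteasome subunit genes are short, with a median principal transcript of 1490 bases (1174 for the core, 1710 for the regulatory particle) against 3085 for all protein-coding genes tested.

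Set beside genes of their own length, the subunit genes had medians near those of all protein-coding genes in most bins, and the share below 0, which was not tested, was higher in each of the 5 bins that held them. The 5 subunit genes under 1000 bases, all of the core, had a median log2 fold change of -0.07, and all 760 protein-coding genes of that length one of -0.11. In the bin from 1000 to 1500 bases, 13 subunit genes had a median of -0.06, against -0.06 for the 1266 protein-coding genes there. From 1500 to 2000 bases the medians were -0.04 for 9 subunit genes and -0.04 for all 1603 genes. From 2000 to 3000 bases they were -0.0035 for 7 subunit genes and -0.0059 for all 3293 genes, and from 3000 to 4500 bases -0.05 for 2 subunit genes and 0.01 for all 3709 genes. No subunit gene was longer. Below 0 lay 5 of 5 subunit genes under 1000 bases, against 73.95% of all genes there, and 69.2% from 1000 to 1500 bases, against 66.0% of all genes. From 1500 to 2000 bases the shares were 77.8% of subunit genes and 63.01% of all genes, from 2000 to 3000 bases 71.4% and 52.2%, and from 3000 to 4500 bases 1 of 2 and 45.4%. Within each particle there was little relation to length. Spearman's rho was 0.28 over 35 subunit genes without Psmb9, but 0.075 over 15 core genes without Psmb9 and 0.083 over 20 regulatory genes, with Pearson's r of 0.19, -0.013 and -0.035 in the same order, all as descriptions across genes of the same libraries. The bin from 1000 to 1500 bases was the only one with at least 5 genes of each particle, and in it 8 core genes had a median of -0.08 and 5 regulatory genes one of 0.02.

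Removing each library's trend with length from the counts brought the medians closer to 0. With exon length removed, the median log2 fold change was -0.04 for the core and -0.0058 for the regulatory particle. With exon length and GC content removed, it was -0.05 for the core and -0.0098 for the regulatory particle. With principal transcript length removed, it was -0.03 for the core, 0.0035 for the regulatory particle and -0.0055 for the 36 genes together, of which 21 were then below 0. Psmb10, at -0.26 in that fit, and Psma3, at -0.17, kept an unadjusted p below 0.05 in edgeR's test, and Psmd5, at -0.15, came below it.

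**Figure D5:**
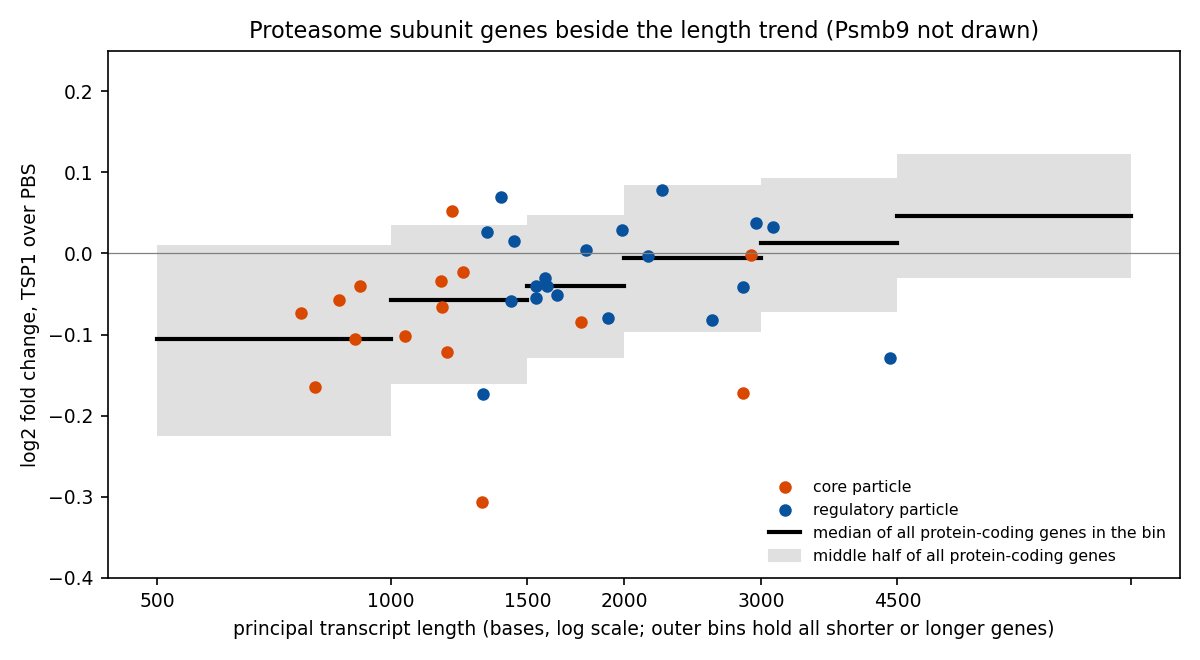
Log2 fold change, TSP1 over PBS, against principal transcript length (bases, log scale) for 35 proteasome subunit genes (points; Psmb9 is off the scale), with the median (line) and middle 50% (grey) of all protein-coding genes in 6 length bins. The bin medians run from -0.11 for the shortest to 0.05 for the longest transcripts, and most subunit genes lie in the grey range of their bin.

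Cytosolic ribosomal protein genes, another set of short housekeeping genes, had lower medians than all protein-coding genes of the same length. Of 77 tested, 76 had a log2 fold change below 0, with a median of -0.19, and 35, or 45.5%, had an unadjusted p below 0.05, all lower, with 0 at an FDR of 0.05 in edgeR's test and 3 below an adjusted p of 0.05 in DESeq2. In the bin from 1000 to 1500 bases the median was -0.19 for 17 ribosomal genes and -0.06 for 13 proteasome subunit genes. With principal transcript length removed the ribosomal median was -0.13, against -0.0055 for the subunit genes.

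Other genes of the pathway were described from 5 lists. Of 5 genes that assemble the core, 4 were below 0 with a median log2 fold change of -0.03 and none had an unadjusted p below 0.05. The maturation factor Pomp had the smallest p, with means of 47.5 ± 3.16 CPM with TSP1 and 51.0 ± 3.35 CPM with PBS (SD, n = 4 and n = 3) and a log2 fold change of -0.10 with an SE of 0.07 (edgeR, unadjusted p = 0.192, adjusted p = 0.706). Of 8 genes for other caps, inhibitors and regulatory particle proteins, 5 were below 0 with a median of -0.01, and none had an unadjusted p below 0.05. The activator Psme4 had the smallest p, with means of 76.8 ± 2.56 CPM with TSP1 and 71.8 ± 3.53 CPM with PBS and a log2 fold change of 0.10 with an SE of 0.06 (edgeR, unadjusted p = 0.141, adjusted p = 0.665). The interferon-inducible activator subunits Psme1 and Psme2 had log2 fold changes of -0.13 and -0.20, and their groups overlapped.

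Of 8 genes for deubiquitinases and shuttle proteins, which trim ubiquitin chains or bring tagged proteins to the proteasome, 4 were below 0 and 4 above, with a median log2 fold change of 0.00021. Of 6 genes for ubiquitin and its activation, 4 were below 0 and 2 above, with a median of -0.05.

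The 7 genes that act in the transcription of proteasome genes were 6 below 0 and 1 above, with a median of -0.07. Nfe2l1, the factor that restores proteasome gene expression when the proteasome is inhibited, had a log2 fold change of -0.02 with means of 332 ± 11.9 CPM with TSP1 and 337 ± 5.82 CPM with PBS (SD, n = 4 and n = 3). Nfe2l2, the factor of the oxidative stress response, had 14.4, 15.5, 18.1 and 16.3 CPM in TSP1 libraries 1 to 4, against 21.6, 22.5 and 19.8 CPM in PBS libraries 1 to 3. Its TSP1 libraries all lay below its PBS libraries, with a log2 fold change of -0.41 with an SE of 0.10 (edgeR, unadjusted p = 0.000829, adjusted p = 0.188).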

How the data were processed

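Medial prefrontal cortex RNA of 7 mice (4 TSP1, 3 PBS) was sequenced. Libraries were prepared with a SMARTer mRNA kit from 1.3 ug of column-purified total RNA each, per the labels' protocols. The authors deposited 1 table of raw counts per gene, judged from its whole numbers with different totals per library. Per the submitters' processing notes the builds were GRCm38 and mm10. Aligner, counting tool, annotation and strand setting: not given in the sources used here. Each sample's column was found by the number that opens its description (1 to 4 for TSP1; 8, 11 and 12 for PBS). The labels hold no batch, and since these numbers split as the groups do, sample order and treatment cannot be told apart.

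Identifiers were matched to GENCODE M21: 25375 of 25467 matched and 92 did not. Symbols, coordinates (GRCm38, counted from 1), exon lengths and principal (APPRIS) transcripts come from it. No library repeated another: chi-square per degree of freedom was 4.21 to 14.6 for pairs within a group.

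The test was edgeR 4.0.16 in R 4.3.3 (filterByExpr, TMM, robust glmQLFit and glmQLFTest of group over 7 libraries, two-sided, Benjamini-Hochberg over 17211 genes), and its script was tested on simulated counts. The SE was derived from the log2 fold change and its F, and p-values set it against the spread between these mice. Per-library list values are means of log2 CPM with a prior count of 2. Alternatives were DESeq2 1.42.0, limma 3.58.1 voom, RLE size factors, no filter, a filter of 5 CPM in 3 or more libraries, a block for the replicate number, each library left out, and each library's trend with exon length, or with exon length and GC content, removed (natural splines, 4 degrees of freedom). Removal of the trend with principal transcript length, and the motif search, were added after the data were seen. DESeq2 gave no adjusted p for 10876 genes.

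The members and lists were chosen with earlier results of these data known. Per-library values are given for members with an unadjusted p below 0.05, the lowest and highest fold change in each subgroup, and Psmb5, Psmb6, Psmb7, Psmb9 and Psmb10. Of the genes of smallest p in the pathway lists, Nfe2l2 has per-library values, and Pomp and Psme4 have group means. Single genes and tests of the deubiquitinase and shuttle list and of the ubiquitin list are not reported here. Other genes are named for their role, for an end of a range or for an overlap, a choice made with their values in view. The gene Paaf1 was not matched and is not analysed here.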

Additional observations from a re-analysis of the deposited data

Results flagged for a closer look

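Among 53 sets of 4 TSP1 values checked for 1 library far from the other 3, 4 were found, and chance gives about 1 in 20. The gap of the extreme library, as a share of the range, was 0.919 for Psmc3, an ATPase of the regulatory particle, at 102.5 CPM in TSP1 replicate 1 and 115.6 to 116.7 CPM in the other TSP1 libraries. It was 0.924 for the assembly chaperone Psmd9, at 16.95 CPM in TSP1 replicate 1 and 22.3 to 22.8 CPM in the others. It was 0.838 for the mean log2 CPM of the core particle, at -0.23 in TSP1 replicate 1 and -0.02 to 0.02 in the others. That mean covers 16 core genes with the immune forms, among them Psmb9 with 10 counts in TSP1 replicate 1. Without the immune forms the mean was -0.18 in TSP1 replicate 1 and -0.06 to 0.07 in the others, and it was not among the 4 found. It was 0.926 for the mean of the striatal neuron markers, at 1.35 in TSP1 replicate 4 and -0.30 to -0.18 in the others. The 3 subunit results share TSP1 replicate 1, the library of lowest depth (15090336 counts). The part of depth was not tested, and groups of 3, such as PBS, were not checked.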

How the results depend on the processing

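No proteasome subunit gene passed an FDR of 0.05 in edgeR's test or any of the 16 alternatives. The count with an unadjusted p below 0.05, 3, was 2 to 3 with a library left out and 3 to 4 otherwise. With a library left out, the median log2 fold change was -0.08 to -0.01 over all members, -0.12 to -0.03 over the core and -0.049 to 0.0074 over the regulatory particle. The regulatory median turned above 0 without TSP1 replicate 1 (0.0074) and with principal transcript length removed (0.0035). Psmb7 turned to 0.022 with principal transcript length removed, and ran from -0.099 to 0.035 with a library left out. Psmd10 ran from -0.19 to 0.081 with a library left out. Of the single-gene alternatives, 282 kept both direction and side of an FDR of 0.05, and 4 turned direction. Since no gene passed that FDR in edgeR's test, keeping its side says little. The causes of the changes were not tested. Over all genes, calls at an FDR of 0.05 were 0 in edgeR's test, 19 without the low-count filter and 88 in DESeq2. They were 9 without PBS replicate 3, 1 without TSP1 replicate 2, 1 without PBS replicate 1 and 0 in every other alternative.

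The titles number TSP1 and PBS libraries alike. Deviations of libraries of the same number had correlations of -0.26, -0.03 and 0.01, and those of different numbers had -0.12 to 0.22. With so few libraries, these values cannot show whether libraries of the same number share more than a number. With the replicate number as a block, the median was -0.07 over all members, -0.13 over the core and -0.03 over the regulatory particle, and 4 members had an unadjusted p below 0.05, the fourth being Psmb9 at a log2 fold change of -0.90. Depth limits Psmb9, Psma8 and Psmb11, and 4 against 3 mice limit the rest.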

Other observations

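The recombination cofactor gene Psmc3ip, whose symbol only begins like those of the ATPases and which was set aside, had 1.12, 1.99, 2.80 and 2.18 CPM in TSP1 libraries 1 to 4, against 1.24, 1.89 and 1.16 CPM in PBS libraries 1 to 3, and its groups overlapped, with a log2 fold change of 0.51 with an SE of 0.31 (edgeR, unadjusted p = 0.124, adjusted p = 0.648).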
